A study of Homo sapiens with 6 samples.

Results

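Of the 6 genes described here, 5 encode chemokine ligands and the other encodes a scavenging chemokine receptor. The ligands are CXCL8, CXCL9, CXCL10 and CXCL16 of the CXC class and CX3CL1, the only member of the CX3C class, and the receptor is ACKR3. They are the 6 rows carrying those symbols in a deposited table of 1630 genes. The RNA came from U87MG, a long-established line of human glioblastoma cells. The 3 shCREPT libraries came from cells with a short hairpin RNA against CREPT, labelled as CREPT knockdown, and the 3 shControl libraries from cells with a control hairpin. CREPT, the product of RPRD1B, binds the tail of RNA polymerase II, and the series title links it to proliferation and to an immunosuppressive setting in glioblastoma. The labels do not say whether the replicates of a group share 1 hairpin sequence or come from separate cultures, so p-values reflect the scatter among these libraries alone, part or all of which may be technical.

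Chemokines are small secreted or membrane-bound proteins that direct cell movement through G protein-coupled receptors, and their class is named for the spacing of the first cysteines. CXCL8 draws neutrophils through CXCR1 and CXCR2. CXCL9 and CXCL10 are induced by interferons and draw activated T cells through CXCR3. CXCL16 and CX3CL1 are made as membrane proteins on a mucin stalk, act as adhesion molecules there, and are released by the proteases ADAM10 and ADAM17; their receptors are CXCR6 and CX3CR1. ACKR3, also called CXCR7, takes up CXCL12 and CXCL11, recruits arrestins, and is known from glioma cells and vessels.

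All 6 members are protein-coding genes, placed here by GENCODE release 29 on GRCh38, the build named in the submitters' processing notes. CXCL8 lies on chromosome 4 at chr4:73740506-73743716 on the plus strand. CXCL9 (chr4:76001275-76007488) and CXCL10 (chr4:76021117-76023497) are neighbours on the minus strand, 13628 bases apart and 2257558 bases beyond CXCL8. CXCL16 is at chr17:4733526-4739922 on the minus strand, CX3CL1 at chr16:57372458-57385048 on the plus strand and ACKR3 at chr2:236567787-236582358 on the plus strand. CXCL16 shares exonic bases with MED11 on the other strand. The labels do not say whether strand was kept, so reads of CXCL16 and MED11 may not have been told apart. ART3 overlaps CXCL10 and an antisense gene overlaps CXCL9, both on the other strand and with no exonic base shared. None of these overlapping genes has a row.

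Promoters are shown for the members with a matched RefSeq window, which are the 3 on chromosome 4. Their inducers are textbook examples: NF-kappaB and AP-1 for CXCL8, interferon-activated factors for CXCL9 and CXCL10. The sequences are from RefSeq on GRCh38.p14, 5′ to 3′, and stop before the first annotated transcript start. RefSeq windows were matched for these 3 members and not for CXCL16, CX3CL1 and ACKR3. Capitals mark matches to the motifs searched on both strands.
CXCL8 (chr4:73740319-73740505, plus strand): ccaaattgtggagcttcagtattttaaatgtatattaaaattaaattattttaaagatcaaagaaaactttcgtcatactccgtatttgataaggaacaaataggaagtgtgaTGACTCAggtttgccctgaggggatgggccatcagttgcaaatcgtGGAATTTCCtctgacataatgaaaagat
CXCL10 (chr4:76023498-76023747, minus strand): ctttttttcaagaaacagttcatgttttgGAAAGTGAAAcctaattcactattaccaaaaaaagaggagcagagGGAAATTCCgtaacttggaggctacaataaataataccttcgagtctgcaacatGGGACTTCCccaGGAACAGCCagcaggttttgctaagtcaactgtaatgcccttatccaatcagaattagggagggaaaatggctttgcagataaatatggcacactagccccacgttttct
CXCL9 (chr4:76007510-76007759, minus strand): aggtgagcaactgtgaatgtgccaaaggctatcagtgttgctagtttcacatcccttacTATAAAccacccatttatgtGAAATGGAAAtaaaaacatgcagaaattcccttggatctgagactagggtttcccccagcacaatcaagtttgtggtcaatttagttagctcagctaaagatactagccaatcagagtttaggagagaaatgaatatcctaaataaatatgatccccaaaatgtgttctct
The motifs were a kappaB-like GGNNNTTCC, the AP-1 motif TGANTCA, the core of the interferon-stimulated response element (ISRE), a gamma-activated site TTCNNNGAA and the TATA box TATAAA. CXCL8 held the AP-1 match TGACTCA at −137 to −131 and the kappaB-like match GGAATTTCC at −91 to −83, counted from the RefSeq start as 0, with a TATA box at −31 to −26 beyond the stretch printed. CXCL10 held an ISRE match, GAAAGTGAAA, at −221 to −212 and 3 kappaB-like matches. CXCL9 held an ISRE match, GAAATGGAAA, at −171 to −162 and a TATA-like match far from the start, and no kappaB-like or AP-1 match. No window held the gamma-activated site as written, and no matches overlapped. Among all 35116 RefSeq windows of the same length, 20.1% held the kappaB-like motif, 7.71% the AP-1 motif, 3.57% the ISRE, 7.66% the gamma-activated site and 11.5% the TATA box. A match describes letters and does not show that a factor binds there.

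**Figure D1:**
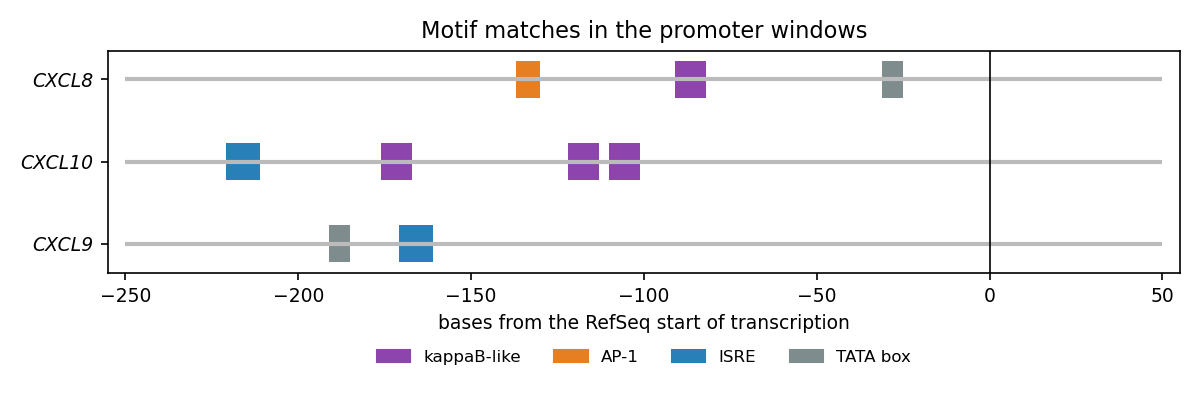
Motif matches in the promoter windows of CXCL8, CXCL10 and CXCL9, with distance from the RefSeq start of transcription in bases on the horizontal axis and 1 line per gene. The ISRE matches of CXCL10 and CXCL9 begin at −221 and −171, and the AP-1 match of CXCL8 at −137.

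The table holds 1 normalized expression value per gene and library, by a method not given in the sources used here, and every row carries the authors' mark of significance. Levels of different genes are therefore not compared, and the differences below describe genes already selected for this same contrast. No read depth is given. Library sums over the listed genes were 31893.7 to 33036.3 in shCREPT libraries and 32475.7 to 33330.8 in shControl libraries. RPRD1B has no row under that name or as CREPT, so the knockdown was not checked. Every listed row has an authors' log2 fold change of at least 1.001 in size, and no fall of RPRD1B of that size is listed. The mitochondrial ribosomal RNA MT-RNR1, a sign of RNA composition, had values of 5918.53 to 6891.8 in shCREPT libraries and 3038.14 to 3497.15 in shControl libraries, and its part in the results was not tested.

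The ligands CX3CL1, CXCL8 and CXCL16 rose in shCREPT cells, while CXCL10, CXCL9 and the receptor ACKR3 fell. CX3CL1 stood 3.26-fold higher, and CXCL8 and CXCL16 stood 2.07-fold and 2.09-fold higher. ACKR3 stood 3.45-fold lower, CXCL9 3.74-fold lower and CXCL10 2.12-fold lower (ratios of group means, n = 3 each). In bulk RNA, fewer cells that express a gene and less of its RNA per cell cannot be told apart. In limma on log2(value + 1), with Benjamini-Hochberg adjustment over 1184 tested genes and a threshold of 0.05, all 6 members were tested and passed. The background is 97.9% of tested genes called, 40.6% higher and 57.3% lower, so the calls of the members say no more than that the authors had listed them. The groups did not overlap for any member, as for 96.8% of the tested genes. An exact two-sided permutation test of 3 against 3 gave 0.1 for each member, the smallest value it can give.

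**Figure D2:**
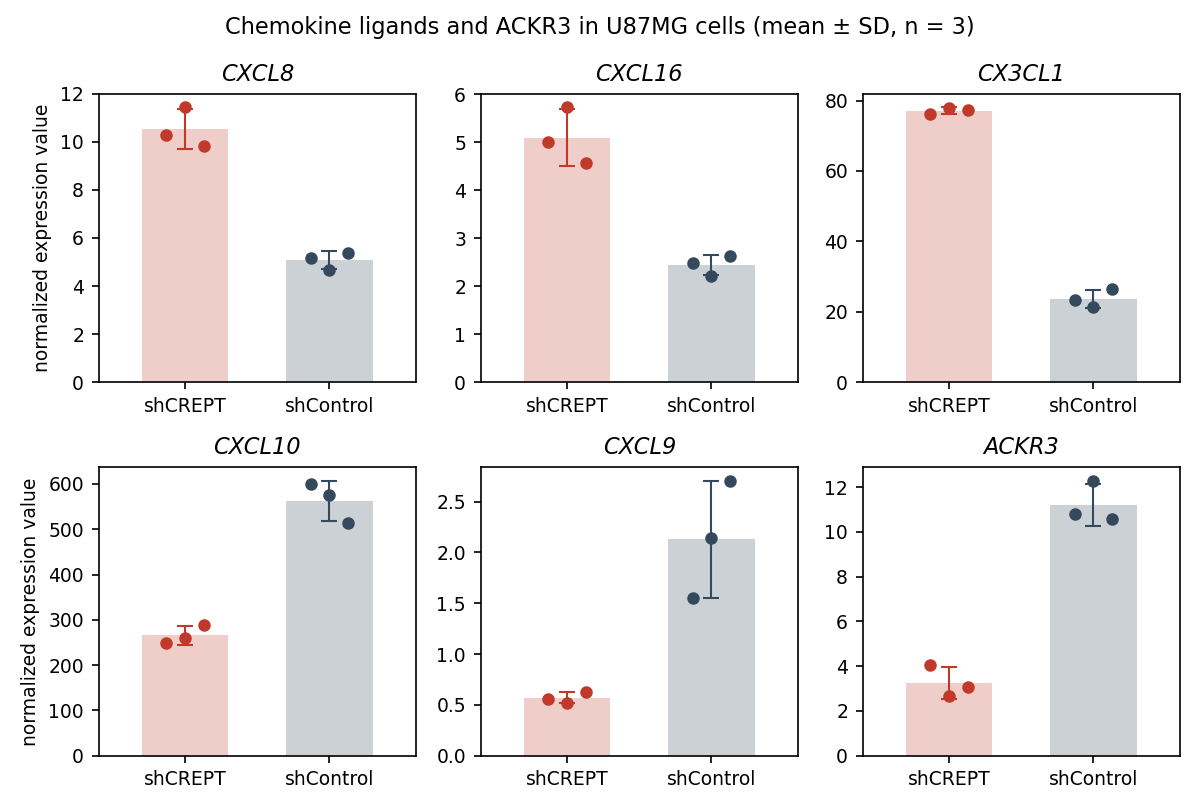
Normalized expression values of the 6 members in each library (points), with group means (bars) and SD (lines), shCREPT left of shControl and each panel on its own axis from 0. CX3CL1 sits between 76.14 and 78.04 in shCREPT libraries, above all shControl libraries, while ACKR3 sits between 2.66 and 4.06, below them.

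Among the ligands that rose, CX3CL1, the tethered attractant of cells that carry CX3CR1, had values of 76.14, 78.04 and 77.29 in shCREPT libraries, against 23.22, 21.42 and 26.37 in shControl libraries. The shCREPT libraries lay within a coefficient of variation of 1.24%, against 10.6% among the shControl libraries. Its log2 change was 1.67 ± 0.10 (SE; limma adjusted p = 1.29e-05). The authors' deposited table gives CX3CL1 a log2 fold change of 1.73 and rank 677 of 1630 by size.

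CXCL8, the neutrophil attractant also known as interleukin-8, had values of 10.3, 11.44 and 9.84 in shCREPT libraries, against 5.16, 4.67 and 5.39 in shControl libraries. The lowest shCREPT library thus stood well clear of the highest shControl library. On the log2 scale it changed by 0.92 ± 0.09 (SE; limma adjusted p = 9.09e-05). CXCL8 is close to the edge of the table. The authors' deposited table gives it a log2 fold change of 1.03, and the smallest in size among all rows is 1.001.

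CXCL16, the membrane-bound ligand of CXCR6 and a scavenger of oxidized lipoprotein, had values of 5, 5.73 and 4.56 in shCREPT libraries, against 2.48, 2.21 and 2.64 in shControl libraries. All shCREPT libraries were above all shControl libraries. The log2 change of CXCL16 was 0.82 ± 0.10 (SE; limma adjusted p = 0.000256). The ratio of the mean values was 1.06 on the log2 scale, while the authors' deposited table gives CXCL16 a log2 fold change of 1.30.

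Of the CXCR3 ligands, CXCL10 had values of 248.65, 259.78 and 288.73 in shCREPT libraries, against 599.86, 574.85 and 513.79 in shControl libraries. Its spread was alike in both groups, with a coefficient of variation of 7.79% in shCREPT libraries and 7.87% in shControl libraries. Its log2 change was −1.08 ± 0.10 (SE; limma adjusted p = 6.39e-05), and in the authors' deposited table it is −1.06, also near the edge. Under median-of-ratios rescaling the log2 change of CXCL10 was −0.20 ± 0.10 (SE, limma adjusted p = 0.107) and its call was lost. That rescaling assumes that the typical gene does not differ, which rows all selected as changed do not meet.

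CXCL9, the other interferon-induced CXCR3 ligand, had values of 0.56, 0.52 and 0.63 in shCREPT libraries, against 1.55, 2.14 and 2.7 in shControl libraries. CXCL9 varied most for its mean among shControl libraries of all members, at 2.13 ± 0.575 there (SD, n = 3), and it passed the filter on low values, at least 1 in at least 3 libraries, only through that group. The change on the log2 scale was −0.98 ± 0.14 (SE; limma adjusted p = 0.000537). At such low values the pseudocount shrinks the change, since the ratio of the means was −1.90 on the log2 scale and the authors' deposited table gives −1.88.

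ACKR3, the receptor that removes CXCL12 and CXCL11 from the surroundings, had values of 4.06, 2.66 and 3.05 in shCREPT libraries, against 10.79, 12.29 and 10.58 in shControl libraries. The first shCREPT library was the highest of its group and still below every shControl library. For ACKR3 the log2 change was −1.53 ± 0.14 (SE; limma adjusted p = 5.48e-05). The ratio of the mean values was −1.78 on the log2 scale, against −2.22 in the authors' deposited table, the widest gap among the members.

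The estimated size of each fall moved with the scaling of the libraries. Median-of-ratios rescaling over the listed genes raised shCREPT libraries against shControl libraries by 0.88 on the log2 scale, and moved the median change of the tested genes to −0.13, against −0.76 as deposited. It assumes that the typical gene does not differ. All listed rows were selected as changed and 59.7% are marked down, so that assumption is not met among them. A call lost under this rescaling therefore decides nothing about the fall. With it CX3CL1, CXCL8 and CXCL16 had log2 changes of 2.52, 1.68 and 1.49, and ACKR3 had −0.79 (limma adjusted p = 0.00222). CXCL9 had −0.52 (limma adjusted p = 0.0105), but it entered the test only through its higher group, so this call does not add to its values. Quantile normalization kept all 6 calls, that of CXCL9 with the same limit. It called 1128 of 1184 tested genes, so the kept calls are not particular to the members. It gave log2 changes of 1.87 for CX3CL1, −1.14 for CXCL10 and −1.31 for ACKR3.

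**Figure D3:**
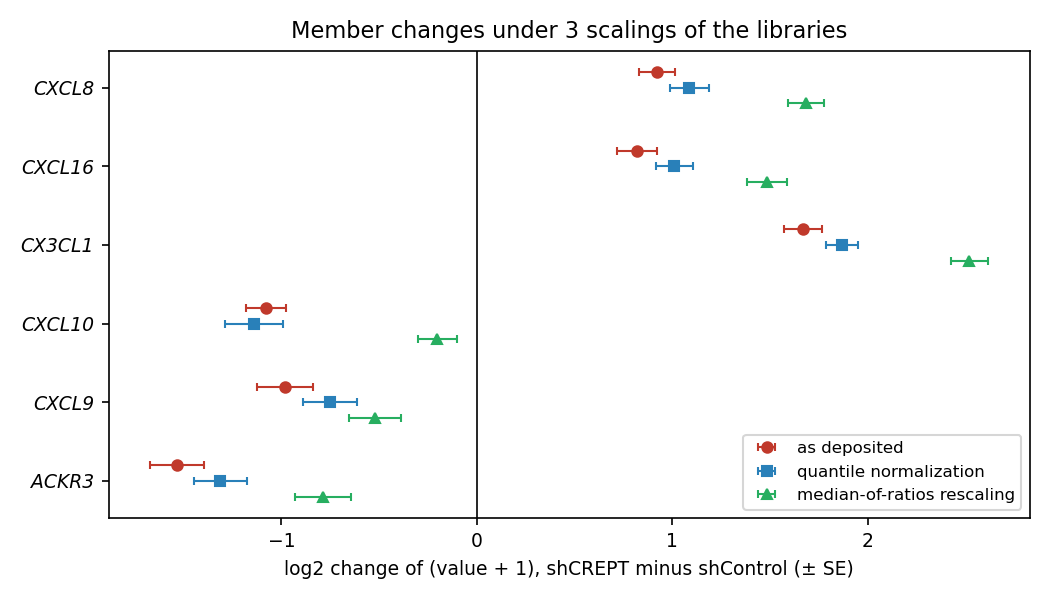
Log2 change of (value + 1), shCREPT minus shControl, on the horizontal axis for each member (rows) under 3 scalings of the libraries; points are limma estimates and lines their SE. The rises grow and the falls shrink under median-of-ratios rescaling, where CXCL10 is at −0.20 and loses its call.

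Ratios between members within a library do not move when all values of that library are multiplied by a common factor. They thus show which members changed apart from each other. Quantile normalization is not such a scaling and can move them. All 15 pairs were compared. The direction of the 9 pairs that join a risen and a fallen member was fixed by the selection of the table, and their log2 ratios differed between groups by 2.14 to 3.58. CX3CL1 over CXCL9 and CX3CL1 over ACKR3 gave the widest differences, 3.58 ± 0.22 and 3.51 ± 0.24 (SE, n = 3 each), equal to ratios 11.96-fold and 11.4-fold higher in shCREPT cells. CXCL8 over CXCL10 differed by 2.14 ± 0.16 (SE, n = 3 each), a ratio 4.39-fold higher.

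For the 6 pairs that moved the same way, the selection bears on some ratios. Every row has an authors' log2 fold change of at least 1.001 in size, and CXCL8 (1.03) and CXCL10 (−1.06) lie near that bound. A listed partner could hardly have changed less by the authors' estimate. The direction of ratios with CXCL8 or CXCL10 was thus in large part set by the selection. CXCL8 over CXCL16 had log2 ratios of 1.04, 0.997 and 1.11 in shCREPT libraries, against 1.06, 1.08 and 1.03 in shControl libraries. These genes, which lie on different chromosomes, differed in change by −0.01 ± 0.04 (SE, n = 3 each; exact two-sided permutation p = 0.9). By the authors' log2 fold changes they are less alike, with 1.03 for CXCL8 and 1.30 for CXCL16. Both were lower relative to CX3CL1 in every shCREPT library than in any shControl library. CXCL8 over CX3CL1 had log2 ratios of −2.89, −2.77 and −2.97 in shCREPT libraries, against −2.17, −2.20 and −2.29 in shControl libraries, a difference of −0.66 ± 0.07 (SE). CXCL16 over CX3CL1 differed by −0.65 ± 0.10 (SE).

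Among the fallen members, CXCL10 was higher relative to CXCL9 and to ACKR3 in every shCREPT library than in any shControl library. CXCL10 over CXCL9 had log2 ratios of 8.79, 8.96 and 8.84 in shCREPT libraries, against 8.60, 8.07 and 7.57 in shControl libraries, a difference of 0.79 ± 0.30 (SE). CXCL10 over ACKR3 had log2 ratios of 5.94, 6.61 and 6.56 in shCREPT libraries, against 5.80, 5.55 and 5.60 in shControl libraries, a difference of 0.72 ± 0.23 (SE). In both pairs the nearest libraries of the groups were close. CXCL9 over ACKR3 overlapped, with a difference of −0.07 ± 0.30 (SE; exact two-sided permutation p = 0.9), an error that leaves room for differences of a size seen in the other pairs. By the authors' log2 fold changes CXCL9 is at −1.88 and ACKR3 at −2.22. Each of the 13 pairs without overlap gave an exact two-sided permutation p of 0.1, the smallest possible, and 0.115 adjusted over the 15 pairs, so none passed 0.05.

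**Figure D4:**
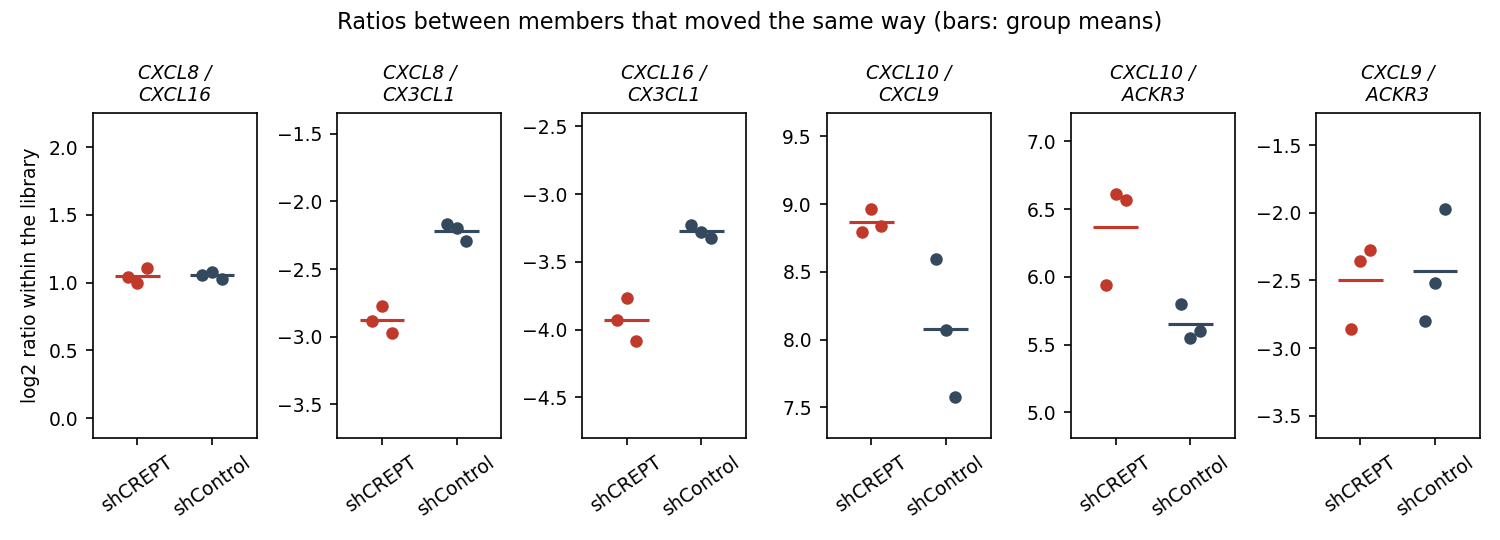
Log2 ratio of 2 members within each library (points) for the 6 pairs that moved the same way, with group means (horizontal lines), shCREPT left of shControl; all panels span the same width on the vertical axis. CXCL8 over CXCL16 is at the same height in both groups, 1.05 and 1.06 on average, while CXCL8 over CX3CL1 averages −2.88 in shCREPT libraries and −2.22 in shControl libraries.

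Other genes of the chemokine system were sparse in the table. Of 18 CXC and CX3C ligand genes, the 5 ligands above have a row and 13 have none, among them CXCL1, CXCL2 and CXCL3, which also bind CXCR2, and CXCL11, which lies 10184 bases from CXCL10 and binds both CXCR3 and ACKR3. Of these 5, 3 rose and 2 fell, with CXCL10 losing its call under median-of-ratios rescaling. Of 12 receptor genes, ACKR3 and CXCR4 have a row. The receptors of the listed ligands, CXCR1, CXCR2, CXCR3, CXCR6 and CX3CR1, have no row, and neither do the 7 processing genes, such as ADAM10, ADAM17 and DPP4.

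CXCR4, the signalling receptor for the CXCL12 that ACKR3 takes up, is listed at 0.03, 0 and 0 in shCREPT libraries, against 0.8, 0.58 and 0.91 in shControl libraries. It was too low to be tested here, and the authors' deposited table gives it a log2 fold change of −6.05. ARRB2, the arrestin beta 2 that ACKR3 recruits, went the other way. Its values were 69.16, 63.21 and 64.03 in shCREPT libraries, against 34.63, 27.41 and 31.9 in shControl libraries, higher by 1.05 ± 0.11 on the log2 scale (SE; limma adjusted p = 9.96e-05). The remaining 10 of 12 genes in the list of ACKR3 ligands and partners have no row.

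ARRB2 is also a neighbour of CXCL16, 12026 bases away on chromosome 17. Of 12 protein-coding genes within 100 kb of CXCL16, ARRB2 and PELP1 have a row, and both rose as CXCL16 did. Of all tested genes 40.6% were called higher, and neighbours were added after their values were seen. PELP1, a coregulator of nuclear receptors, had values of 59.62, 59.81 and 56.35 in shCREPT libraries, against 34.94, 28.45 and 29.95 in shControl libraries, higher by 0.90 ± 0.10 on the log2 scale (SE; limma adjusted p = 0.000145). Neighbours of CX3CL1 include the chemokine genes CCL22 and CCL17, and none of its 7 protein-coding neighbours within that distance has a row. CXCL8 and ACKR3 each have 1 such neighbour and it has no row, and CXCL9 and CXCL10 have a row only for each other. ARRB2 and PELP1 kept their direction and call under both other scalings. Median-of-ratios rescaling raised shCREPT libraries against shControl libraries by 0.88 on the log2 scale, so it could not take a rise away.

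Of 29 interferon regulators and genes that interferons induce with the CXCR3 ligands, 3 have a row and all 3 fell, with a median log2 change of −1.37; of all tested genes 57.3% were called lower, with a median of −0.76. IFNB1 encodes interferon beta, a direct inducer of CXCL10. It had values of 68.95, 69.87 and 74.28 in shCREPT libraries, against 189.8, 192.11 and 173.94 in shControl libraries. Its log2 change was −1.37 ± 0.08 (SE; limma adjusted p = 1.39e-05), the groups did not overlap, and it kept its call at −0.50 under median-of-ratios rescaling. IFNAR2, a chain of the receptor for interferon beta, averaged 5.37 ± 0.468 in shCREPT cells and 11.3 ± 0.846 in shControl cells (SD, n = 3 each). Its log2 change of −0.95 shrank to −0.17 and lost its call under that rescaling (limma adjusted p = 0.140). GBP4, an interferon-induced guanylate-binding protein, averaged 1.79 ± 0.646 in shCREPT cells and 6.48 ± 0.548 in shControl cells (SD, n = 3 each), a change of −1.45 ± 0.17 on the log2 scale (SE; limma adjusted p = 0.000181). Interferon-induced genes outside this list did not all fall. MX2, an interferon-induced antiviral GTPase named here for its profile, averaged 27.9 ± 1.70 in shCREPT cells and 14.1 ± 0.690 in shControl cells (SD, n = 3 each; log2 change 0.94, limma adjusted p = 5.76e-05), while IFITM2, named on the same ground, averaged 65.2 ± 6.57 in shCREPT cells and 190.4 ± 2.84 in shControl cells. The other 26 genes of the list, among them IRF1 and IFNGR1, have no row.

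Of 23 NF-kappaB and AP-1 regulators, 1 has a row. FOSL1, an AP-1 subunit of the FOS family, had values of 79.57, 81.72 and 71.12 in shCREPT libraries, against 25.29, 24.04 and 28.28 in shControl libraries. Its log2 change was 1.55 ± 0.10 (SE, limma adjusted p = 1.65e-05), and it rose under every scaling tried. Median-of-ratios rescaling raised the shCREPT libraries, so it could not take that rise away. The part of FOSL1 in the change of CXCL8 was not tested. NFKB1, RELA, NFKBIA, JUN and FOS are among the 22 without a row.

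**Figure D5:**
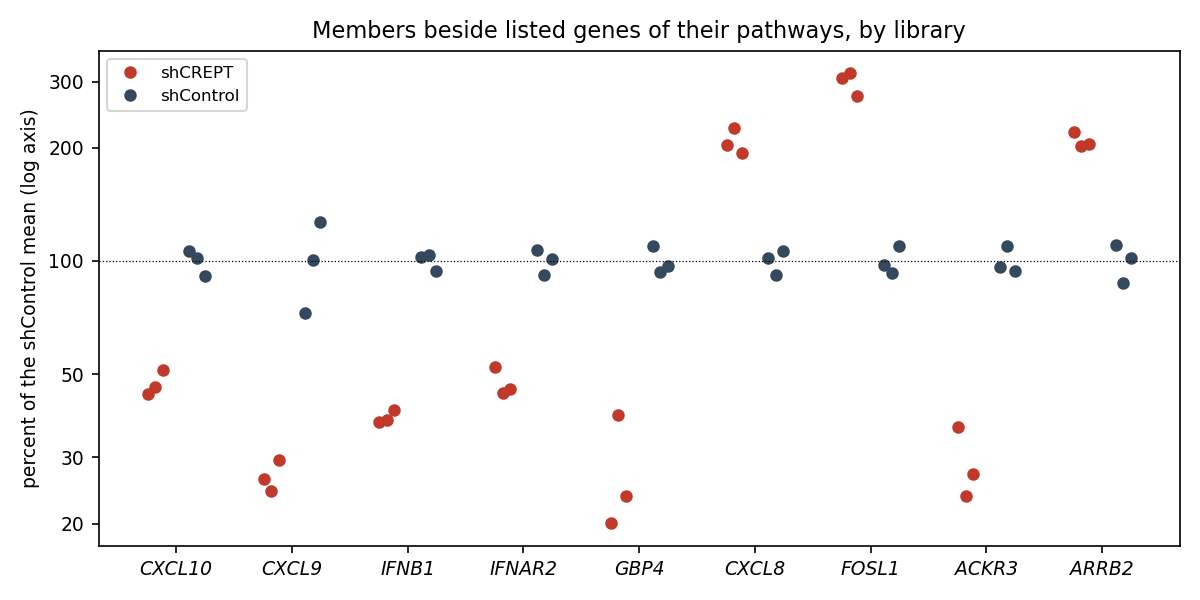
Value of each library (points) as a percent of the shControl mean of the same gene, on a log axis, for members and listed genes of their pathways, shCREPT left of shControl. CXCL10, CXCL9, IFNB1, IFNAR2, GBP4 and ACKR3 lie below 100 in the shCREPT libraries and CXCL8, FOSL1 and ARRB2 above; the falls of CXCL10 and IFNAR2 are those whose call was not kept with median-of-ratios rescaling.

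The genes whose profile over the 6 libraries was nearest to a member were found by the root mean square difference of log2(value + 1) after subtracting the shControl mean. KIFAP3 was nearest to CXCL10, at 0.034, with CDH15 at 0.038. MX2 was nearest to CXCL8, at 0.046, followed by CHAF1B at 0.063. SEMA6B (0.054) and TINAGL1 (0.073) were nearest to CX3CL1. PIK3AP1 was nearest to CXCL16, at 0.065, and CXCL8 itself came next at 0.076. SNAI2 (0.086) and SEMA6A (0.099) were nearest to CXCL9, and TSPAN13 (0.12) and IFITM2 (0.13) to ACKR3. Likeness here is on the scale with the pseudocount, which shrinks low genes. CDH15, at 0.18 to 0.41 in shCREPT libraries and 1.4 to 1.9 in shControl libraries, stood 5.73-fold lower by group means, while CXCL10 stood 2.12-fold lower. SNAI2 stood 2.17-fold lower and CXCL9, a low gene, 3.74-fold lower.

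The 11 myeloid markers (microglia, macrophage, monocyte) and the 9 T cell markers, GZMK among them, have no row, which does not tell whether they are expressed. Of 8 glioma and astrocyte markers, GFAP, S100B and SLC1A3 have a row, summing to 72.5 to 88.9 in shCREPT libraries and 498 to 528 in shControl libraries. Of 5 endothelial markers, CDH5 and KDR have a row, summing to 11.6 to 13.7 in shCREPT libraries and 43.3 to 45.3 in shControl libraries. Of 6 fibroblast and pericyte markers, COL1A2 and COL3A1 have a row, summing to 432 to 492 in shCREPT libraries and 1085 to 1099 in shControl libraries. S100B is listed at 0 in 1 shCREPT library, and so is COL3A1. In shControl libraries the values of GFAP averaged 434 and those of SLC1A3 78.4, while those of COL1A2 averaged 1093 and those of COL3A1 0.183. Thus 1 gene carried most of each of these sums there, which is not a comparison of expression levels between genes. Under median-of-ratios rescaling SLC1A3 and KDR lost their calls (limma adjusted p = 0.207 and 0.124), while GFAP, S100B, CDH5 and COL1A2 kept theirs. That rescaling called 869 of 1184 tested genes. S100B entered the test only through its shControl values, so its call does not add to those values. ACKR3 and the CXCR3 ligands moved in the same direction as these marker sums, and the part of the markers in those results was not tested.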

How the data were processed

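RNA-seq values of 6 libraries were taken from 1 deposited table. The submitters' processing notes name HISAT2, HTSeq and GRCh38 without versions or roles. Per the file headers, the per-library signal values are normalized by the authors, by a method that no source used here gives. The authors also deposited a p-value, an adjusted p-value, a ratio of the groups (fold change) and the log2 of that ratio, per the file headers. Values are not counts, so no count test was run. Here log2(value + 1) was compared with limma 3.58.1 in R 4.3.3, after a filter of at least 1 in at least 3 libraries (1184 of 1630 genes tested), with no covariate. The step was tested on simulated data in which only a minority of genes changed. That setting is unlike the deposited data, where all rows were selected as changed. No library was a repeat of another: at least 96.0% of values differed between any pair. Genes named beside the members are those of fixed lists with a row, listed neighbours within 100 kb (added after their values were seen), and the 2 tested genes nearest to each member in profile. Members and lists were chosen with earlier results of these data known. Motifs and ratios used Python 3.11.15 with scipy 1.17.1. Alternatives were pseudocounts of 0.1 and 5, no filter, a minimum of 10, median-of-ratios and quantile scaling, trend and robust options, a replicate block, and each library left out. Protein sequences were not analysed here.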

Additional observations from a re-analysis of the deposited data

How the results depend on the processing

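CX3CL1 and ACKR3 kept their direction and call under 14 of 14 alternatives, and CXCL8, CXCL16 and CXCL9 under the 13 that tested them (a minimum of 10 removed them). Except with no filter, CXCL9 entered these tests only through its shControl values, so its kept calls do not add to those values. ACKR3 likewise entered the test with a minimum of 10 only through its shControl values, so that call adds nothing to them. For the members that rose, median-of-ratios rescaling raised the shCREPT libraries and could not take the rise away. CXCL10 kept its direction and call under 13 of 14. Under median-of-ratios rescaling it had a log2 change of −0.20 (limma adjusted p = 0.107; 9.55e-06 to 0.107 over its alternatives). That rescaling called 377 genes lower, against 678 as deposited, and 56.6% of its calls were higher, against 41.5%. A minimum of 10 left 487 genes and called 485, 214 higher and 271 lower, by construction. A pseudocount of 5 shrank CXCL9 to −0.35, CXCL16 to 0.44 and ACKR3 to −0.98, and one of 0.1 gave CXCL9 −1.70. Without each library in turn there were 1137 to 1152 calls, and log2 changes of −1.14 to −1.03 for CXCL10, −1.12 to −0.85 for CXCL9 and −1.66 to −1.43 for ACKR3. The difference in log2 ratio of CXCL10 to CXCL9 ranged from 0.53 to 1.05 over those fits, and that of CXCL10 to ACKR3 from 0.60 to 0.94.

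With the replicate number as a block, 1156 genes were called and the 6 members kept their calls (limma adjusted p up to 0.00252, for CXCL16). For CXCL9 the limit given above holds here too. Deviations of libraries with the same number correlated at r = −0.109, 0.018 and −0.179, so the numbers are not taken to pair the samples. Depth is unknown, so no limit on low values can be set.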
